A study of Mus musculus with 3 samples.

Results

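The sites described here are stretches of open chromatin that sit inside protein-coding sequence, away from promoters, in mouse Müller cells. They were chosen by position alone. Peaks of 3 DNase-seq libraries that shared 1 bp or more were joined into regions, and a region was kept when it held a peak from all 3 libraries, its centre lay in a coding exon of a protein-coding gene, and that centre was over 1 kb from every start site of a protein-coding transcript (GENCODE M21, mm10). Of 352310 merged regions, 145369 held a peak from all 3 libraries and 1889 met every condition. A single one lay in mt-Nd5 on the mitochondrial chromosome (positions 12796 to 13065), scored 142 in each library and was set aside. The other 1888 lay on nuclear chromosomes, in 1683 genes, and are called coding exon sites below.

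DNase-seq maps DNA that the nuclease DNase I can reach, which is mostly DNA freed of nucleosomes at promoters, enhancers and insulators. Müller cells are the radial glia of the retina; they span its whole depth, clear transmitters and potassium, and react to injury by gliosis. The cells were primary Müller cells of the B6NCrl strain at 12 days of age, with male and female animals pooled, in a single group of 3 biological replicates that carry the same donor label. No sort, time in culture or treatment is named for any of them, and the protocol named was written for cultured cells. Spreads between the replicates may therefore be partly technical.

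Coding exons can carry regulatory sequence besides the code for protein. Transcription factors bind within them, and some exons act as enhancers of a neighbouring gene: exons of Dync1i1, which encodes a dynein intermediate chain, are known as limb enhancers of Dlx5 and Dlx6. CTCF, the zinc finger factor of insulators and chromatin loops, has many sites within genes. DNase accessibility shows that DNA is open and does not show which factor is bound or which gene is affected.

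The sequences below show how a factor consensus, the short sequence that a factor family prefers, sits among codons. Each is the 150 bp at the centre of a site, read 5′ to 3′ on the coding strand of the gene from the mm10 genome, with bases of untranslated regions left out. In the first set the capitals mark the match to the CTCF consensus, searched on both strands as CC, any 3 bases, AG, any 2 bases and GGC. Rasip1, a regulator of endothelial junctions, held the highest ranked site with this consensus. Dkk3 encodes a secreted protein of Müller cells, Klf4 a transcription factor and Spi1 the myeloid factor PU.1.
Rasip1 (chr7:45638766-45638881, plus strand): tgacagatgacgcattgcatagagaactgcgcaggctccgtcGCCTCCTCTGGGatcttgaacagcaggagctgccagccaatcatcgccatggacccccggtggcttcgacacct
Dkk3 (chr7:112118214-112118355, minus strand): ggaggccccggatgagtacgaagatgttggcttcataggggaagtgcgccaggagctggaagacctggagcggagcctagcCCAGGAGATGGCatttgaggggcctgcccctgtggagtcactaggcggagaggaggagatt
Klf4 (chr4:55530326-55530475, minus strand): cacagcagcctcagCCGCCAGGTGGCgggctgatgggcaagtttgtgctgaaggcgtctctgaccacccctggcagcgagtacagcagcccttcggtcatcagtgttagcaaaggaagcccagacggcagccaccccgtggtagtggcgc
Spi1 (chr2:91115156-91115305, plus strand): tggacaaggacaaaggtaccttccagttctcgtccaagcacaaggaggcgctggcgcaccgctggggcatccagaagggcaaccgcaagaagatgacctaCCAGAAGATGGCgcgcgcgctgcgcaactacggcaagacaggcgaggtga

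The second set holds sites with a consensus of other factor families. The capitals mark the AP-1 consensus (TGAGTCA or TGACTCA, bound by FOS and JUN dimers) in 1810062G17Rik and in Hspg2, the basement membrane proteoglycan perlecan. They mark the TEAD consensus (GGAATG) in Inpp5b, an inositol phosphatase, and the RUNX consensus (TGTGGTT, here on the other strand) in Lhx2, a homeobox factor of retinal glia and progenitors. In Hspg2 the match begins within the splice donor, the first intron bases after the exon.
1810062G17Rik (chr3:36481856-36481973, plus strand): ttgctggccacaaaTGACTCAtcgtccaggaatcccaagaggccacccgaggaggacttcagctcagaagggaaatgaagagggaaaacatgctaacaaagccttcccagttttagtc
Hspg2 (chr4:137501076-137501225, plus strand): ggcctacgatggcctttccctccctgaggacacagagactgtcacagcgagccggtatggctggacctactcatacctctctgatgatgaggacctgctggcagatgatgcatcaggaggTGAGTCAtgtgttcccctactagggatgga
Inpp5b (chr4:124751456-124751605, plus strand): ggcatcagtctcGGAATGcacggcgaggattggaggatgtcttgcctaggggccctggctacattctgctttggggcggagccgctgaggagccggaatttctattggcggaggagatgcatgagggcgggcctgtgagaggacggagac
Lhx2 (chr2:38359966-38360115, plus strand): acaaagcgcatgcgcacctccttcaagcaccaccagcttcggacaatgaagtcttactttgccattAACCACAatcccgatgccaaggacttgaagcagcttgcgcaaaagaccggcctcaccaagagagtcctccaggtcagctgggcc

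The third set shows sites at an exon edge, and here the capitals mark coding bases and the lower case letters mark intron. Wwtr1 encodes TAZ, the partner of YAP in TEAD signalling. Dync1i1 is shown because of the exonic enhancers known from it.
Wwtr1 (chr3:57501756-57501905, minus strand): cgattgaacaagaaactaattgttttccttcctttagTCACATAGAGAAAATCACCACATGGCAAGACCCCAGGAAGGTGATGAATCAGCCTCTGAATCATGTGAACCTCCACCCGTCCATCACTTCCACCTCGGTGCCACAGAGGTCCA
Dync1i1 (chr6:6006206-6006355, plus strand): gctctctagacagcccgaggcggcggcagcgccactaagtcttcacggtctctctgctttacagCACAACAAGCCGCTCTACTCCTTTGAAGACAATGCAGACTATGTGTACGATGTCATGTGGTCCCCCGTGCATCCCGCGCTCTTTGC

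Coding exon sites were about as dense as sites in introns. They made up 1.56% of the 121008 reproducible sites on nuclear chromosomes over 1 kb from a start site, and coding sequence made up 1.14% of the sequence that could hold such a site. There were 64.0 sites per Mb of coding sequence and 59.0 per Mb of intron, a ratio of 1.09, with 60.3 per Mb in other exon sequence and 39.2 between genes. When each replicate's own peaks were taken alone, the ratio of coding sequence to intron came to 0.956, 0.954 and 1.3, with a mean of 1.07 ± 0.198 (SD, n = 3). The difference from intron was therefore smaller than the spread between replicates, and without replicate 3 the ratio was 0.921.

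Replicate 3 stood apart from the others. It had 184544 peaks, against 300269 and 281185 in replicates 1 and 2, and its read depth is unknown, as is theirs. Of the regions over 1 kb from a start site that only replicate 3 had, 564 of 16387 (3.44%) were in coding exons, against 1.38% and 1.5% of those that only replicate 1 or 2 had, and 1.08% of those shared by replicates 1 and 2 alone. Promoter peaks at a list of 16 Müller glia genes were present for all 16 in every replicate, and at 10 rod genes for none. They were present in every replicate for 7 of 8 genes of other retinal neurons, 6 of 6 of astrocytes and 7 of 8 of pericytes, and for 4, 4 and 3 of 6 of the pigment epithelium. At 14 microglia and macrophage genes they were present for 14, 14 and 4 in replicates 1, 2 and 3, and at 10 endothelial genes for 8, 8 and 7. Of 19668 protein-coding genes with coding sequence over 1 kb from a start site, 71.2% had a promoter region with a peak from all 3 replicates. That share was not counted for single replicates. Whether other cell types were present was not tested. Their part in the values below, and that of the difference between replicates, was not tested either.

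The host genes were spread widely. Of 19668 protein-coding genes with coding sequence over 1 kb from a start site, 8.56% held a coding exon site. A single site was found in 1519 genes, and 164 genes (9.74%) held 369 sites between them: 133 had 2, 25 had 3, 4 had 4, 1 had 5 and 1 had 7. The host gene's own promoter held a reproducible region for 1362 of the 1683 genes (80.9%), against 71.2% of all genes that could have held a site. The nearest start site was that of the host gene for 1428 sites (75.6%). Over all sites, the median distance to the nearest protein-coding start site of any gene was 9646.5 bp (quartiles 3057 and 26146 bp). The nearest other reproducible region lay 3110 bp away in the median, close to the 3270 bp of intron sites.

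Most sites lay in internal exons, but for the amount of sequence they were densest in the first, the last and the single coding exons. Internal coding exons held 1192 sites (63.1%), last coding exons 423 (22.4%), single coding exons 140 (7.42%) and first coding exons 133 (7.04%). Set against the coding sequence of 1 representative transcript per gene, which covered 1813 of the sites, the density was 54.3 sites per Mb in internal exons, 81.0 in last, 102 in single and 107 in first exons. Internal exons made up 74.5% of that sequence and last exons 16.6%. In the replicates' own peaks the share in internal exons was 65.1%, 66.1% and 59.7% (63.6% ± 3.44 on average, SD, n = 3) and in last exons 20.9%, 20.4% and 23.9% (21.7% ± 1.89). In each replicate the internal share was under the share of sequence and the last exon share was over it.

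Longer exons held more sites per base up to a length of 1000 bp. The density was 46.4 per Mb in exons with under 100 coding bases, 55.1 from 150 to under 200, 86.5 from 300 to under 500 and 93.3 from 500 to under 1000, and 69.4 in exons of 1000 and over. The median exon with a site had 211 coding bases (quartiles 136 and 658), and the longest was the 10374 bp exon of Eppk1, the cytoskeletal linker epiplakin. Along the coding sequence the share of sites was 19.0% in the first 25% of codons. It was 23.1%, 27.2% and 30.7% in the following stretches of equal size. Coding sequence within 1 kb of a start site could hold no site, and the remaining sequence of each stretch was not counted. These shares are therefore not densities.

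Fewer than 50% of the regions were wholly coding. The whole region lay inside the exon of the chosen transcript at 676 sites (35.8%), and in the median 78.8% of a region was coding. A splice acceptor was crossed by 792 regions, a donor by 670 and both by 378. Sites of internal exons showed no side: 601 centres were nearer the acceptor and 587 nearer the donor. At 1499 sites (79.4%) the centre was coding in every coding transcript that spanned it, and 1753 (92.8%) were in a transcript of the consensus coding set. A start site of some other transcript, mostly a noncoding one of a protein-coding gene, lay within 1 kb of 373 sites (19.8%).

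The sites were rich in G and C. The 150 bp at the centre had a median GC of 56.7%, against 50% in 220311 windows of 150 bp centred on coding sequence, 49.3% at intron sites and 48% at intergenic sites. In the own peaks of replicates 1, 2 and 3 the median was 54%, 54% and 58% in coding exons. In introns it was 47.3%, 47.3% and 50%. There were 1.42 sites per 1000 coding windows at a GC under 40%, 7.82 at 50 to 55%, 15.5 at 60 to 65% and 68.4 at 65% and over. The plot of density by exon position, exon length and GC shows these values. First and single coding exons had the highest GC at their sites, with medians of 62.7% and 64.7%, and internal exons the lowest with 54%. By exon length, the median GC at sites was 51.3% in exons with under 100 coding bases and 54% from 150 to under 200. It was 61% from 300 to under 500, 64% from 500 to under 1000, and 62% in exons of 1000 and over. The part of GC in the density by exon position and by exon length was not tested.

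**Figure D1:**
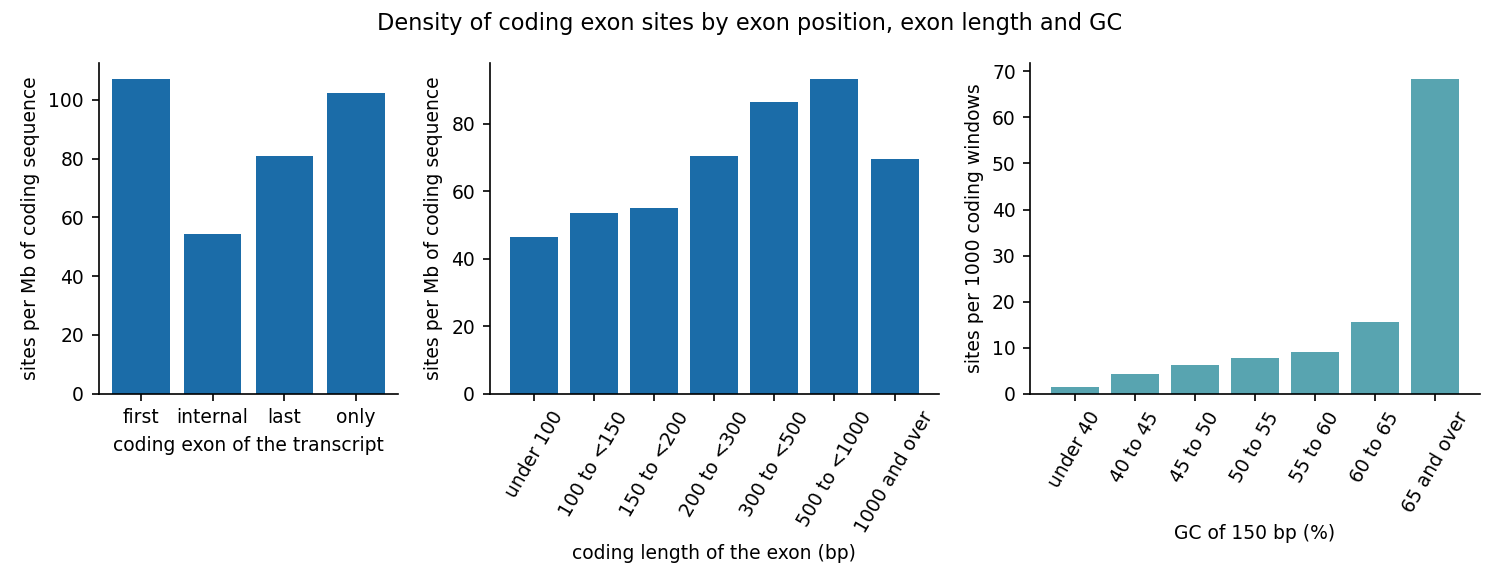
Density of coding exon sites by place of the exon among the coding exons of its transcript (left) and by coding length of the exon (middle), both as sites per Mb of coding sequence over 1 kb from a start site, and by GC of the 150 bp at the centre as sites per 1000 windows of coding sequence (right). Bars start at 0; internal exons sit lowest at 54.3 per Mb, and density rises with GC from 1.42 to 68.4 sites per 1000 windows.

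Consensus sequences for transcription factors differed between coding exon sites and other sites. The CTCF consensus was found at 279 coding exon sites (14.8%), against 8.86% of all reproducible sites over 1 kb from a start site and 2.97% of coding windows. In the replicates' own peaks the CTCF share was 11.2%, 10.9% and 12.4% of coding exon peaks (mean 11.5% ± 0.781, SD, n = 3) and 6.17%, 6.24% and 7.38% of intron peaks. The difference was 4.88 ± 0.180 percentage points (SD, n = 3) and was positive in each replicate. Intron sites weighted to the GC of the coding exon sites had a CTCF share of 10.6%, and coding windows weighted likewise 5.06%. At 237 of the 279 sites (84.9%) a match was wholly coding.

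The AP-1 consensus moved the other way. It was found at 179 coding exon sites (9.48%), against 16.7% of all sites and 1.94% of coding windows. In the replicates' own peaks the AP-1 share was 10%, 9.74% and 7.02% in coding exons and 15.6%, 15.7% and 13.7% in introns, a difference of -6.05 ± 0.563 percentage points (SD, n = 3). Intron sites at the GC of the coding exon sites had an AP-1 share of 13.5%, and coding windows at that GC 1.63%. At 114 of the 179 sites an AP-1 match was wholly coding. At 32 (17.9%) a match touched the splice donor of a coding exon, as in the Hspg2 sequence printed above, and in coding windows with the consensus this was so at 556 of 4266 (13.0%).

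TEAD, RUNX and homeobox matches were also less frequent than at other sites. The TEAD consensus was found at 266 coding exon sites (14.1%), against 19.6% of all sites and 7.81% of coding windows. The RUNX consensus was found at 65 (3.44%), against 7.03% and 2.43%, and the homeobox consensus TAATTA at 36 (1.91%), against 6.78% and 1.66%. The SOX consensus (ACAATAG or ACAATGG) was found at 63 (3.34%), against 5.96% and 3.20%. In each replicate's own peaks the coding exon share was below the intron share for all 4 of these, with differences of -4.95 ± 1.62, -3.02 ± 0.442, -5.08 ± 0.241 and -1.93 ± 0.629 percentage points (SD, n = 3). At matched GC the intron shares were 16.1%, 4.95%, 3.42% and 4.02%, and those of coding windows 6.70%, 2.04%, 0.620% and 2.38%.

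E-box matches (CANCTG, bound by basic helix-loop-helix factors) were found at 841 coding exon sites (44.5%), against 37.4% of all sites and 42.0% of coding windows. Their CACCTG form, which ZEB and SNAIL factors prefer and which is counted among the E-boxes too, was found at 195 (10.3%), against 6.79% and 15.9%, so it was less frequent at the sites than in coding sequence at large. An NFI consensus (TTGGC, any 5 bases and GCC) was found at 42 (2.22%), against 2.18% and 0.409%. The ETS consensus ACTTCCGG was found at 12 (0.636%), against 0.214% and 0.397%. In the replicates' own peaks the coding exon share was above the intron share by 5.87 ± 1.15 percentage points for E-boxes, 3.57 ± 0.567 for their CACCTG form and 0.441 ± 0.0275 for ETS (SD, n = 3), each in all 3 replicates. For NFI the difference was 0.194 ± 0.305, within the spread. Intron sites at matched GC had shares of 39.6%, 8.63%, 0.301% and 2.69% for E-boxes, the CACCTG form, ETS and NFI. Coding windows at matched GC had 45.4%, 19.3%, 0.448% and 0.598%, so the E-box share of the coding exon sites was above that of all coding windows and below that of windows at their GC. Every other consensus searched was found at 24 sites or fewer. A match is a description of letters, and an exact test over 3 replicates could not have gone below p = 0.25 for any of these differences.

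**Figure D2:**
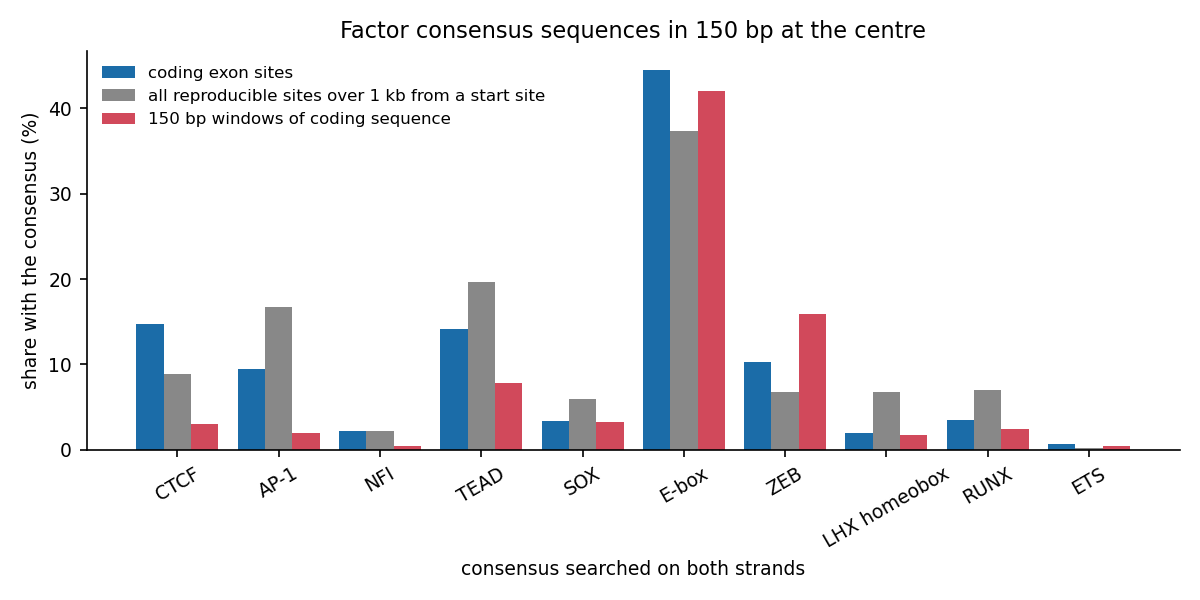
Share (%) of coding exon sites (blue), of all reproducible sites over 1 kb from a start site (grey) and of 150 bp windows of coding sequence (red) that hold each consensus on either strand. CTCF stands at 14.8%, 8.86% and 2.97%, and AP-1 at 9.48%, 16.7% and 1.94%.

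Each peak carries a deposited score, a whole number from 1 to 150 whose meaning is not stated. The highest score of a replicate in a region stands for that replicate. Whether the score has the same scale in every replicate is unknown. Scores of a site set side by side between replicates therefore cannot be read as differences in accessibility. Across coding exon sites the scores ran from 20 to 146 in replicate 1, from 15 to 148 in replicate 2 and from 10 to 139 in replicate 3. The median score of coding exon sites was 67, 54.5 and 48 in replicates 1, 2 and 3, that of intron sites was 77, 64 and 45, and that of intergenic sites 75, 61 and 41. Coding exon sites therefore scored lower than intron sites in replicates 1 and 2 and higher in replicate 3. The difference from intron sites came to -10, -9.5 and 3, with a mean of -5.5 ± 7.37 (SD, n = 3), which did not pass the exact sign-flip permutation test (two-sided p = 0.5, adjusted p = 0.75 over 3 comparisons, smallest possible p = 0.25). The difference from intergenic sites was -8, -6.5 and 7 (mean -2.5 ± 8.26, exact p = 0.75, adjusted p = 0.75, n = 3), and that from other exon sites was -9, -7.5 and 0 (mean -5.5 ± 4.82, exact p = 0.5, adjusted p = 0.75, n = 3). These differences are within or near the spread between replicates.

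**Figure D3:**
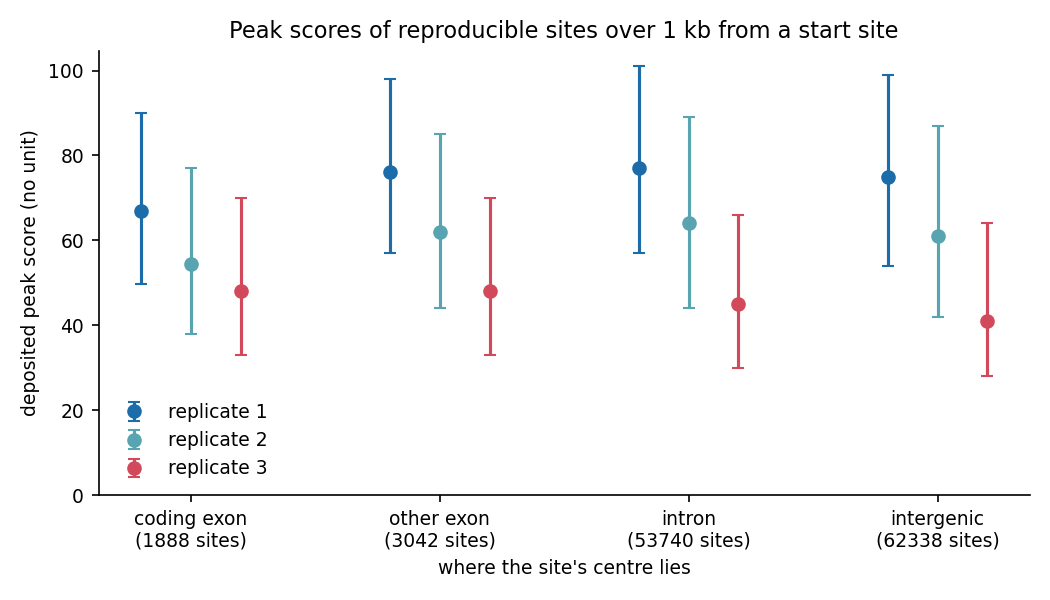
Deposited peak score (no unit) of reproducible sites over 1 kb from a start site, by where the centre lies; points are medians over sites and bars run from the lower to the upper quartile, for replicates 1 to 3. Coding exon medians (67, 54.5 and 48) are below intron medians (77, 64 and 45) in replicates 1 and 2 and above them in replicate 3.

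At matched GC the coding exon sites had the lower score in every replicate. With sites split into 7 bins of GC, the median of coding exon sites was below that of intron sites in each bin of each replicate. Among sites with a GC of 65% and over, the medians in coding exons were 66, 53 and 67, and in introns 88, 77 and 87. Among sites under 40% they were 62, 49 and 26.5 in coding exons, and 72, 56 and 31 in introns. Averaged over bins with the coding exon sites as weights, the difference came to -12.7, -13.3 and -10.2 by replicate (mean -12.1, exact sign-flip permutation p = 0.25, the smallest that 3 replicates allow). This split was chosen after the medians had been seen.

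Replicate 3 differed in how its score moved with GC. Across coding exon sites, Spearman's rho of GC with score was -0.0172, 0.00137 and 0.462 in replicates 1, 2 and 3 (n = 1888 sites, which share libraries), and across intron sites it was 0.0609, 0.101 and 0.356. The scores of coding exon sites were most alike between replicates 1 and 2, with a rho of 0.937, and less alike between replicate 3 and either of them, with 0.666 and 0.671. Among intron sites these were 0.955, 0.754 and 0.769. The cause of the relation with GC in replicate 3 was not tested.

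**Figure D4:**
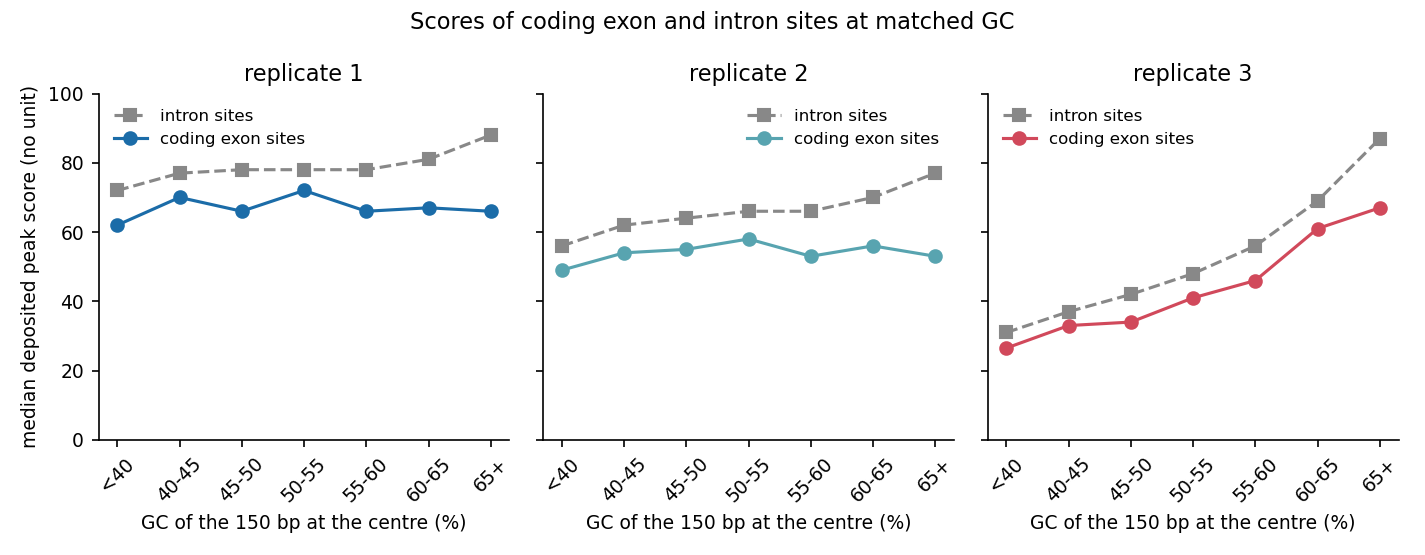
Median deposited peak score (no unit) of coding exon sites (circles, solid line) and intron sites (grey squares, dashed line) by GC of the 150 bp at the centre, for each replicate. The coding exon line lies below the intron line in all 7 bins of each panel, and both lines climb with GC in replicate 3.

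Coding exon sites reached a score of 100 about as often as sites of all classes did, and the highest ranks somewhat less often. A score of 100 or more in every replicate was reached by 99 of them (5.24%), against 5.69% of all reproducible sites over 1 kb from a start site. A rank at or above percentile 90 among all reproducible regions, in every replicate, was reached by 38 (2.01%), against 2.79%. All 1888 overlapped a hotspot, the authors' wider region of enrichment, in each replicate. The hotspot's −log10 q was at its cap of 100 at 73.4%, 63.6% and 55% of sites in replicates 1, 2 and 3. These shares were not counted for other classes of sites, so whether coding exon sites differ in them cannot be said.

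The 10 highest sites were ranked by the lowest of their 3 percentiles. The site in B430305J03Rik, a gene with 1 coding exon, scored 146, 148 and 136 in replicates 1, 2 and 3 at codon 164 of 176. Bcat2, the mitochondrial enzyme that starts the breakdown of branched-chain amino acids, scored 145, 140 and 136 at codon 390 of 393, in a last exon with 36 coding bases. Only 24.0% of that region was coding. Susd1 scored 145, 139 and 139, also in its last coding exon, and 1810062G17Rik, whose AP-1 match is printed above, scored 145, 135 and 130. Each of these stayed within 15 points over the replicates.

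The regions of 4 of the 10 highest sites lay wholly inside an exon. Angptl6, a secreted angiopoietin-like protein, scored 144, 138 and 130 in its first coding exon at a GC of 70.7%. Cep170, a centrosomal protein, scored 144, 137 and 128 in a 477 bp internal exon, at a GC of 43.3%. Inpp5b scored 142, 141 and 128 at codon 204 of 993. Kank3 scored 135, 133 and 135 in a 1251 bp exon at a GC of 75.3%. These 4 exons differ widely in GC. Atn1, which encodes the corepressor atrophin, scored 140, 140 and 125 in a region that crossed the donor of an internal exon. Although all 10 were over 1 kb from a protein-coding start, 5 of them (Atn1, Rasip1, Inpp5b, Kank3 and Susd1) lay between 56 and 215 bp from the start of a transcript of another kind, against 19.8% of all coding exon sites within 1 kb of such a start.

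Rasip1 held 3 coding exon sites. The last exon site printed above scored 141, 139 and 129, the site in coding exon 2 scored 118, 114 and 107, and that in coding exon 4 scored 46, 50 and 46. The last of these was the lowest in each replicate.

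Of the sites with a given consensus, the strongest are named here. The RUNX consensus led in Lhx2, described below. The ETS consensus led in Psmc2, an ATPase of the proteasome, at 136, 129 and 122 in its first coding exon. The NFI consensus led in the sorting receptor gene Sorl1 at 132, 130 and 108, and the SOX consensus in the lymphoid repressor gene Bach2 at 129, 127 and 112. The PU.1 type of ETS consensus led in Nckap1l, a cytoskeletal regulator of blood cells, at 127, 129 and 106. The homeobox consensus led in the phospholipase gene Plcb4 at 100, 94 and 63. Among coding exon sites, the median score with a CTCF match was 71, 57 and 51 and without it 66, 54 and 48. With a homeobox match it was 56, 48 and 27 and without it 67, 55 and 49. The low values of these 36 sites were thus furthest from the rest in replicate 3. Coding exon sites with a GC under 40% had medians of 62, 49 and 26.5 in replicates 1, 2 and 3. The part of GC in the values with the homeobox match was not tested.

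Some genes carried several sites within the same exon. Tchh, which encodes trichohyalin of the hair follicle, had 7 sites in its 4659 bp last exon, with scores from 26 to 96, and no other gene had as many. Mki67, the proliferation marker Ki-67, had 4 sites in its 6836 bp exon. The strongest of them scored 138, 136 and 98 and the others 93, 81 and 45, then 80, 70 and 39, then 70, 58 and 34, with replicate 3 lowest each time. Macf1, a spectraplakin that links actin and microtubules, had 5 sites, and Map4, Syne1 and Pcdh17 had 4 each, over several exons in each gene. Cacna1a, a calcium channel gene, had 2 sites in its last coding exon, at 132, 123 and 125 and at 89, 86 and 93. Ryr1, the calcium release channel of muscle, had 3 sites in separate exons, of which 1 was strong at 134, 127 and 112 and another scored 29, 19 and 18. Sites in the same exon share their sequence context and are not independent.

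Among 23 Müller glia genes with coding sequence that could hold a site, 9 had 12 sites, or 322 per Mb against 65.8 per Mb over all genes. The lists here were chosen with earlier results known and are described without a test. The median scores of the 12 sites were 60, 39 and 61, beside 67, 54.5 and 48 over all coding exon sites. Lhx2 scored highest of them, with 129, 125 and 120 in coding exon 4 of 5, 7509 bp from a start site. Dkk3 scored 119, 103 and 99 in its last coding exon, 40776 bp from a start site. Car2, the glial carbonic anhydrase, had sites at 87, 75 and 60 and at 76, 38 and 47, and Spon1, the secreted protein spondin 1, had a site at 71, 76 and 62. Sox9, the glial transcription factor, held 3 sites at 64, 40 and 81, at 48, 25 and 64 and at 48, 37 and 70, all highest in replicate 3.

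Genes of gliosis and stress had 11 sites in 8 of 27 genes (368 per Mb), with median scores of 87, 76 and 61. Klf4 scored 114, 109 and 100, and Gfap, the filament protein of reactive glia, 103, 86 and 62 in an internal exon, 3990 bp from a start site. Fos, the immediate early gene whose product pairs with JUN, had 3 sites at 105, 105 and 53, at 97, 98 and 36 and at 87, 95 and 35. In each of the Fos sites replicate 3 was far below the others, which lay within 8 points of each other. Stat3, the factor of cytokine signalling, scored 89, 62 and 74.

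Notch pathway genes had 9 sites in 9 of 24 genes (122 per Mb), with median scores of 92, 79 and 70. The receptor Notch4, an endothelial Notch, scored 133, 126 and 133 in its last coding exon, and the receptor Notch1 scored 92, 79 and 84, also in the last. The divergent ligand gene Dll3 scored 98, 84 and 77 in an internal exon at a GC of 73.3%. Hey1, a target and repressor of the pathway, scored 100, 88 and 101 in its last coding exon.

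Genes of YAP, TEAD and Hippo signalling had 9 sites in 6 of 24 genes (144 per Mb), with median scores of 94, 74 and 67. Wwtr1, the coactivator TAZ, scored 135, 135 and 117 at the edge of its second coding exon, 73997 bp from a start site, as printed above. Ccn1, a matricellular target of YAP, had a site at 133, 123 and 91 at the end of its coding sequence and another at 130, 117 and 74. The atypical cadherin Fat4 had 3 sites, the strongest at 90, 80 and 105, and Fat1 had 1 site at 97, 74 and 49. The plot of scores in glial and signalling genes shows these sites by replicate.

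**Figure D5:**
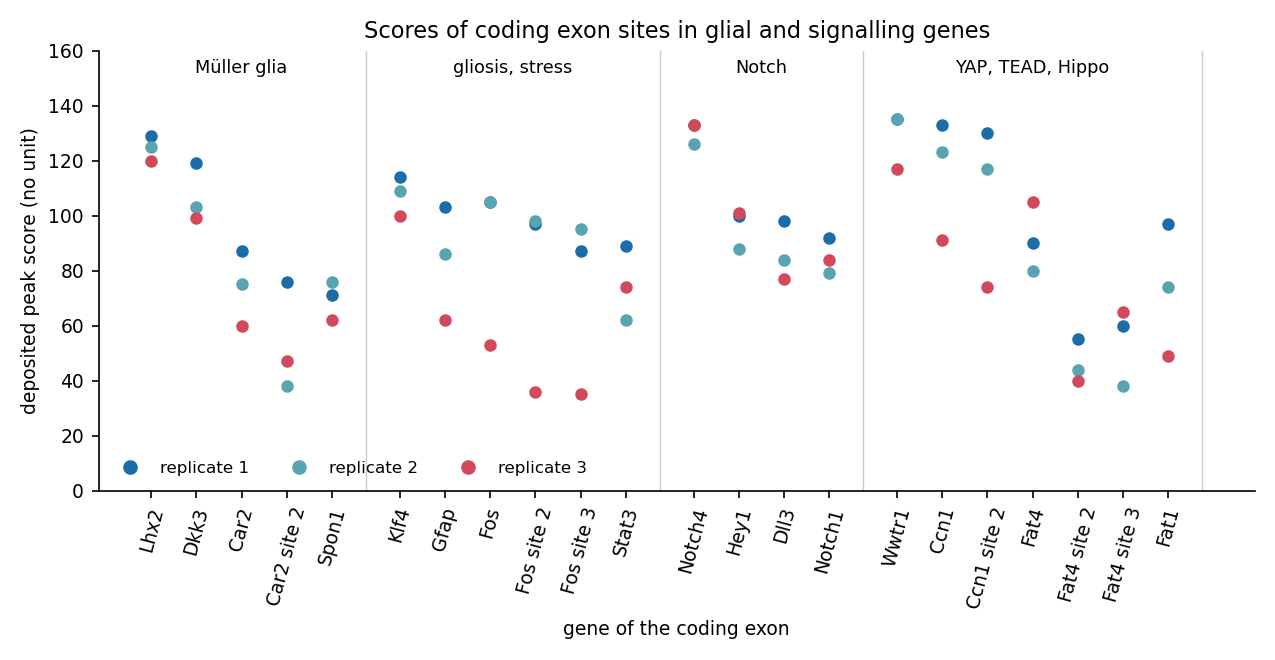
Deposited peak score (no unit) of coding exon sites in up to 4 genes of the Müller glia, gliosis and stress, Notch, and YAP, TEAD and Hippo lists; each column is 1 site and each point 1 replicate. The Lhx2, Klf4 and Notch4 sites have replicates within 15 points of each other, while the Fos and Ccn1 sites are lower in replicate 3 than in either other replicate by at least 32 points. The scale may differ between replicates. By percentile among reproducible regions, the strongest Ccn1 site stood at 93.4, 91.6 and 83.5 in replicates 1, 2 and 3. The strongest Fos site stood at 74.8, 82.0 and 55.7.

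Retinal transcription factors had 20 sites in 14 of 51 genes (184 per Mb), with median scores of 61.5, 38.5 and 65.5. Besides Lhx2 and Klf4, Sox8, a glial SOX factor, had sites at 95, 88 and 99 and at 72, 45 and 50, and Six3, an eye field homeobox factor, had a site at 72, 51 and 78 at codon 332 of 333. Replicate 3 had the highest score at both Six3 and the first Sox8 site.

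The 5 remaining lists had between 55.2 and 98.5 sites per Mb, beside 65.8 over all genes. Basement membrane and matrix genes had 17 sites in 14 of 41 genes (73.2 per Mb), among them Hspg2 at 111, 110 and 75 and Nid2, or nidogen 2, at 104, 99 and 77. Giant cadherins and adhesion receptors had 17 sites in 10 of 29 genes (98.5 per Mb), led by Celsr2, an atypical cadherin of planar polarity, at 130, 125 and 129. Cytoskeletal giants had 23 sites in 11 of 34 genes (55.2 per Mb), led by the dystrophin relative Utrn at 109, 98 and 82. Chromatin regulators had 18 sites in 13 of 50 genes (65.7 per Mb), led by the remodeller Chd7 at 144, 141 and 107. Axon guidance genes had 8 sites in 8 of 40 genes (60 per Mb), led by the semaphorin Sema4c at 100, 90 and 101. The share of genes with a site was between 20% and 34.5% in these lists, above the 8.56% of all genes, and their coding sequence is long, with 417 kb for the 34 cytoskeletal genes.

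Lists of other cells of the retina held 3 sites each. Photoreceptor genes had 3 sites in 3 of 27 genes (48.7 per Mb), among them Aipl1, a chaperone of phosphodiesterase, at 64, 48 and 52, and Nrl, the rod determining factor, at 65, 40 and 36. Microglia and macrophage genes had 3 sites in 3 of 24 genes (106 per Mb): Spi1 at 131, 105 and 106, the interferon regulatory factor Irf8 at 118, 112 and 98, and the myeloid factor Cebpa at 65, 34 and 64. The promoter of Spi1 held no peak in replicate 3, whereas its last coding exon did, at 106; Spi1 was 1 of 10 microglia and macrophage genes of 14 with no promoter peak in that replicate.

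The site in Dync1i1 was among the weaker ones. It scored 51, 30 and 50, ranked 1529 of the 1888 by its lowest rank, and lay in the 14th of 16 coding exons. The nearest start of a protein-coding transcript was 210837 bp away, and a noncoding transcript of Dync1i1 started 215 bp away. That exon is number 15 of 17 in the transcript, and 55.3% of the region was coding. Whether it is the exon known from limb cannot be read from these data.

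Single sites differed between replicates in either direction. By the rank of replicate 3 set against the mean rank of replicates 1 and 2, the sites that fell furthest were in Kcnma1 (117, 96 and 27), Peg3 (113, 102 and 29), Gcfc2 (112, 100 and 32), Map4 (92, 80 and 21) and Gprc6a (80, 73 and 12). Kcnma1 encodes a large potassium channel and Peg3 an imprinted zinc finger protein. Those that stood highest in replicate 3 were in Usp51 (35, 48 and 84), Dysf (50, 39 and 85), Kank2 (46, 41 and 79), Nr2f6 (51, 32 and 72) and Zan (45, 38 and 71). Their GC was between 45.3% (Gprc6a) and 50.7% (Peg3 and Gcfc2) in the first 5, and between 53.3% (Zan) and 72.0% (Nr2f6) in the second 5.

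The 1 kb limit cut through similar sites. Just outside it lay the sites of Gas2l1 at 1006 bp (43, 29 and 45), Mab21l1 at 1011 bp (93, 79 and 95) and Soga1 at 1013 bp (46, 32 and 51). Just inside it, and so left out, lay regions by 2310033P09Rik at 1000 bp (99, 85 and 91), Gas1 at 1000 bp (78, 59 and 87) and Cdk13 at 996 bp (107, 80 and 89). A further 1428 reproducible regions with a coding centre lay within the limit.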

How the data were processed

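DNase-seq peak lists and hotspot lists of 3 biological replicates of mouse Müller cells were used, with coordinates on mm10. Per the file headers, the authors made each list from the filtered alignments of a single library and 1 more file, without pooling replicates. Which aligner, peak caller and read filter they used is not given in the sources used here. The deposited peak value is a score, a whole number from 1 to 150, and the deposited hotspot value is a −log10 q with a cap of 100. Read depth is unknown, since the lists hold no counts, so no interval for counting error can be given.

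Repeated peaks (21, 20 and 23) were removed. Peaks were merged at an overlap of 1 bp, and the score of a replicate in a region is its highest. Start sites are those of protein-coding transcripts of protein-coding genes in GENCODE M21. Exon position is that of 1 transcript per site, chosen by type, principal isoform, CCDS membership and coding length. Density used sequence over 1 kb from a start site outside assembly gaps. A total of 20 consensus sequences were searched on both strands in 150 bp. Scores were compared between classes of sites as 1 difference of medians per replicate, with an exact sign-flip permutation test, two-sided, and Benjamini-Hochberg adjustment. Merging, overlap, distances and the test were tested on simulated data with known answers. Python 3.11.15, numpy 2.4.6, pandas 2.3.3, pysam 0.24.0 and matplotlib 3.10.9 were used.

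The sites, 13 gene lists and consensus sequences were chosen with earlier results of these data known. Genes were named by rule. The first rules took the 10 highest sites by lowest percentile among the reproducible regions, and the 10 genes with most sites. Others took the highest site of each exon position and of each consensus, and up to 4 genes per list. The last took 3 sites on either side of the 1 kb limit, and 5 sites in each direction by replicate 3 against the others. Sites outside these rules, such as those of Sox9, were named after their values were seen. The alternatives were 75 bp merging, a limit of 2500 bp, start sites of any gene, basic transcripts, the centre of the strongest peak, regions whole in 1 exon, peaks at or above the median score, equal numbers of peaks, percentiles in place of scores, 100 bp searched, and each replicate left out. Added after the data were seen were all transcript starts, CCDS transcripts and matched GC. A few items withheld from this text are not reported here.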

Additional observations from a re-analysis of the deposited data

How the results depend on the processing

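Of 109 values computed under 16 alternatives, 92 kept their direction and stayed within the limits set. These limits were for a count (1.5 times), a share (1 SD between replicates) or a test. The test limit applied to the score differences and could not be crossed. With 3 replicates the exact sign-flip permutation test cannot go below p = 0.25. The 92 include 15 score differences from intron and 13 from intergenic sites, which kept their direction only, whatever their size. The number of coding exon sites (1888) fell to 681 when the whole region had to lie in 1 coding exon and to 900 with peaks at or above the median score, and the number of genes (1683) to 616 and 840. It was between 1969 and 2736 sites and between 1740 and 2311 genes without 1 replicate. With whole regions the share of sites was 0.563% and the density against intron 0.392 times. Only the coding exon sites had to meet that requirement, not the intron sites, the other sites or the sequence counted. Both values therefore had to fall, and they do not compare wholly coding sites with intron sites. Without 1 replicate the share was between 1.35% and 1.62%, and the density between 0.921 and 1.13 times. The density ratio was 0.995 with 184544 peaks from each replicate. The score difference from intron stayed negative in every alternative (between -4.5 and -3 without 1 replicate, -12.1 at matched GC, which was added after the data were seen). That from intergenic sites was 1 with whole regions, between -1.5 and 0 without 1 replicate (0 without replicate 1), and -12.8 at matched GC. The last exon share (22.4%) was 25.1% with start sites of any gene, 31.6% with whole regions, 26.7% with peaks at or above the median score, 24.8% with all transcript starts (added after the data were seen), and between 20.8% and 22.7% without 1 replicate. The CTCF share (14.8%) was 16.2% with 75 bp merging, 15.6% at the strongest peak's centre, 17.4% with peaks at or above the median score, 11.9% in 100 bp, and between 12.3% and 14.7% without 1 replicate. Apart from the share and density with whole regions, which cause lies behind these moves was not tested. The stricter rules also left a smaller number of sites. Read depth is unknown, so sites missing from a replicate cannot be told from sites too shallow to be called.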
